A study of Homo sapiens with 12 samples.

Results

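The AP-1 and immediate early factors examined here were 9 genes, FOS, FOSB, FOSL1, FOSL2, JUN, JUNB, JUND, ATF3 and EGR1, chosen by gene symbol from a count table of 60612 named genes. All 9 had a single entry in the table. FOSL1 had 0 reads in all 12 libraries, and the other 8 passed the filter on low counts and were tested among 11803 genes.

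RNA came from CAMA-1, an established human breast cancer line that expresses the oestrogen receptor (ER), labelled wild-type in every group. Cells were grown in serum-containing RPMI-1640 and treated for 5 days with DMSO (the vehicle control), 100 nM abemaciclib, which inhibits CDK4 and CDK6, 5 nM fulvestrant, which binds ER and causes its degradation, or both drugs, whose doses are not restated for the combination. Each group held 3 biological replicates of this 1 line, so every p value measures the spread among cultures of CAMA-1. QuantSeq 3′ libraries, which read the tail of polyadenylated transcripts, held 3299119 to 5164667 counts each, and levels are given as CPM, a library's counts scaled to a common total after TMM correction.

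AP-1 is a dimer of basic leucine zipper proteins. JUN, JUNB and JUND pair with each other or with FOS, FOSB, FOSL1 and FOSL2, whereas FOS proteins do not form stable dimers among themselves, and ATF3 is a stress-responsive relative that pairs with JUN proteins. FOS, FOSB, JUN, JUNB, ATF3 and the zinc-finger factor EGR1 are immediate early genes. Their transcription rises within minutes of growth factor or stress signalling, without new protein synthesis, and their messages are short-lived. For some of them the signal runs through serum response factor and the ternary complex factors that ERK phosphorylates. In breast epithelial cells AP-1 also shares many enhancers with ER.

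The cells carried their luminal markers. ESR1, FOXA1, GATA3, KRT8, KRT18 and KRT19 were all detected in every group, with ESR1 between 81.5 and 102.7 CPM as group means. Of 8 markers of other cell types, COL1A2, PECAM1 and CD68 had 0 reads throughout, and KRT5, KRT14 and PTPRC stayed below 0.4 CPM as group means. COL1A1 and ACTA2 were measurable, and ACTA2, a smooth muscle actin, went from 2.42 ± 0.787 CPM in DMSO to 16.8 ± 2.00 with abemaciclib, 15.8 ± 1.15 with fulvestrant and 16.2 ± 1.99 with both drugs (SD, n = 3). The summed level of the 8 markers was 17.5 to 20.1 CPM across DMSO libraries, 38.2 to 40.4 with abemaciclib, 37.8 to 41.2 with fulvestrant and 34.6 to 38.7 with both drugs; its part in the results that follow was not tested. In bulk RNA, fewer expressing cells and less RNA per cell cannot be told apart. All 12 libraries correlated best with a library of their own group, although the lowest correlation within a group (0.970) was under the highest between groups (0.976).

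The promoters of 4 of the genes are shown because these genes represent the profiles found: FOS and EGR1, whose levels moved alike, and JUN and JUND, of which JUND was the least changed of the JUN genes in each comparison with DMSO. Each line gives the 250 bases before the RefSeq start site (GRCh38.p14), written from 5′ to 3′ on the gene's own strand. The windows are chr14:75278578-75278827 on the plus strand for FOS, chr5:138465229-138465478 on the plus strand for EGR1, chr1:58784048-58784297 on the minus strand for JUN and chr19:18281623-18281872 on the minus strand for JUND. Capitals mark matches on either strand to the CArG box, which serum response factor binds, to the AP-1 site TGANTCA, to the longer TGACNTCA, and to TGACGT, the core of the cyclic AMP response element, which lies inside TGACNTCA when N is G.
FOS: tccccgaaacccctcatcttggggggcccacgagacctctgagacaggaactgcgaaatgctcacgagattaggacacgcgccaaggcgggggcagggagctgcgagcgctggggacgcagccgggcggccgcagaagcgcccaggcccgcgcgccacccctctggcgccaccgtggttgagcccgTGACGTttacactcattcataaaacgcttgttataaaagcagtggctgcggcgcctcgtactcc
EGR1: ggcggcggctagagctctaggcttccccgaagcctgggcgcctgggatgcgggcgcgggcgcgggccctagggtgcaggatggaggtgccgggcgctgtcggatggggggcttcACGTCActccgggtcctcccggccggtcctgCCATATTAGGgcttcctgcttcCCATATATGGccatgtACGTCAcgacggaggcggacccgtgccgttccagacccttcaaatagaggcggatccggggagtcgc
JUN: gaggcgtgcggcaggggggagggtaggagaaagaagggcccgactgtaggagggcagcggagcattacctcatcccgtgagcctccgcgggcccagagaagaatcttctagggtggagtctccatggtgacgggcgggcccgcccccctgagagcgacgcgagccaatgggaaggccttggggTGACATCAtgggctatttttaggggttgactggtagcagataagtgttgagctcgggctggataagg
JUND: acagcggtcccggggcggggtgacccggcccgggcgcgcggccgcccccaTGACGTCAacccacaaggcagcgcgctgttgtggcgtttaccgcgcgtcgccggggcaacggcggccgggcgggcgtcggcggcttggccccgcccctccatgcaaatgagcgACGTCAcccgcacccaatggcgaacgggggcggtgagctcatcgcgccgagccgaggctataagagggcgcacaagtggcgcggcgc

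EGR1 held 2 CArG boxes, CCATATTAGG at 105 to 96 bases and CCATATATGG at 83 to 74 bases before the start, with a copy of TGACGT on the other strand at 136 to 131 and at 67 to 62 bases. FOS held TGACGT at 64 to 59 bases and no CArG box within this window. JUN held TGACATCA at 67 to 60 bases. JUND held TGACGTCA at 200 to 193 bases and a further TGACGT on the other strand at 87 to 82 bases. Among 35116 RefSeq windows of the same length, 1.16% held a CArG box, 6.57% TGANTCA, 6.87% TGACNTCA and 7.1% TGACGT. An entry was found for 8 of the 9 genes. FOSB and FOSL2 also held TGACGT, at 60 to 55 and at 66 to 61 bases, and JUNB held none of these motifs. For ATF3 the window chr1:212565157-212565406 held TGACATCA at 123 to 116 bases, and its other window held none of them. These matches describe letters and are no evidence of binding.

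The levels fell into 3 profiles. JUN, JUNB, JUND and FOSL2 were high with fulvestrant and as high with both drugs. By group means, FOS and EGR1 were highest with fulvestrant alone and lower with both drugs, and FOSB was highest with abemaciclib. By the edgeR test the highest group did not pass against the next (adjusted p 0.0914 for FOS, 0.157 for EGR1 and 0.139 for FOSB). Nor did FOS or EGR1 pass between fulvestrant and both drugs. ATF3, which with FOSB gave the fewest reads, passed in none of the 7 comparisons.

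**Figure D1:**
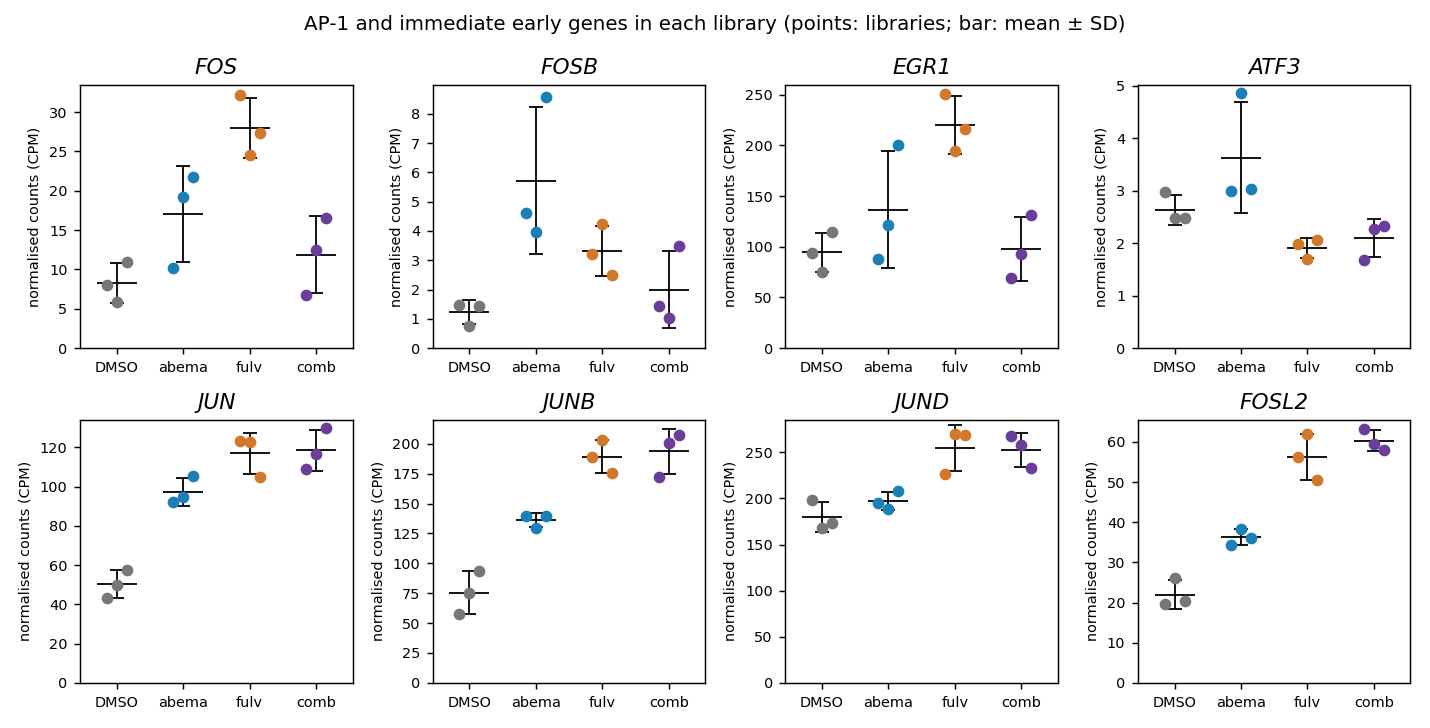
Normalised counts (CPM, y axis, from 0) of the 8 measured AP-1 and immediate early genes in DMSO, abemaciclib (abema), fulvestrant (fulv) and the combination (comb). Points are libraries and bars are the mean ± SD of 3. The means of FOS and EGR1 peak in fulvestrant and are lower in the combination, whereas those of JUN, JUNB, JUND and FOSL2 are as high in the combination as in fulvestrant.

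JUN (chr1:58776845-58784048, minus strand) encodes the AP-1 subunit with the strongest transactivation domain of its family. It was measured at 43.3, 50.0 and 57.5 CPM in the DMSO libraries, 92.0, 94.7 and 105.4 with abemaciclib, 123.3, 122.7 and 104.6 with fulvestrant, and 109.0, 116.4 and 129.7 in the combination. Every treated library lay above every DMSO library, and the fulvestrant and combination libraries overlapped. JUNB (chr19:12791486-12793315, plus strand), a JUN relative that can restrain JUN activity, stood at 57.3, 75.4 and 93.4 CPM in DMSO, 139.5, 129.1 and 139.5 with abemaciclib, 189.0, 203.1 and 175.5 with fulvestrant, and 172.3, 200.8 and 207.8 in the combination. Its order was DMSO, then abemaciclib, then fulvestrant and the combination, with no overlap except between the last pair. Exons of JUNB overlap those of HOOK2 on the opposite strand, and whether reads were counted by strand is not stated; HOOK2 had group means between 28.2 and 42.0 CPM.

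JUND (chr19:18279694-18281622, minus strand), the JUN gene that is expressed steadily in quiescent cells, was the most abundant in reads of the JUN genes and the least changed. Its levels were 198.3, 167.4 and 173.8 CPM in DMSO, 195.5, 188.7 and 207.7 with abemaciclib, 226.3, 269.9 and 268.2 with fulvestrant, and 267.8, 258.3 and 232.4 in the combination. The abemaciclib libraries overlapped DMSO, and the libraries of both fulvestrant-containing groups lay above both. FOSL2 (chr2:28392448-28417317, plus strand), which encodes FRA2, a FOS relative without a strong transactivation domain, stood at 19.6, 26.0 and 20.3 CPM in DMSO, 34.4, 38.4 and 36.1 with abemaciclib, 56.3, 62.1 and 50.6 with fulvestrant, and 63.3, 59.5 and 58.1 in the combination. As with JUNB, overlap was seen between fulvestrant and the combination alone.

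FOS (chr14:75278826-75282230, plus strand), the archetypal immediate early gene, was measured at 8.01, 5.89 and 11.0 CPM in DMSO, 10.2, 19.2 and 21.7 with abemaciclib, 32.1, 24.5 and 27.3 with fulvestrant, and 6.74, 12.4 and 16.5 in the combination. All 3 fulvestrant libraries lay above the other 9, and the other groups overlapped each other. EGR1 (chr5:138465479-138469303, plus strand) stood at 93.8, 75.1 and 114.3 CPM in DMSO, 88.2, 121.4 and 200.1 with abemaciclib, 250.5, 194.1 and 216.1 with fulvestrant, and 69.3, 92.4 and 131.3 in the combination. Fulvestrant libraries lay above all DMSO and combination libraries but overlapped abemaciclib, whose replicate 3 was above fulvestrant replicate 2.

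FOSB (chr19:45467995-45475179, plus strand), a FOS relative whose shortened product accumulates with repeated stimulation in neurons, was scarce, at 4 to 7 counts per DMSO library. It stood at 1.48, 0.760 and 1.45 CPM in DMSO, 4.60, 3.97 and 8.59 with abemaciclib, 3.21, 4.23 and 2.51 with fulvestrant, and 1.44, 1.03 and 3.50 in the combination. The libraries of each single drug lay above DMSO, and the combination overlapped DMSO. ATF3 (chr1:212565334-212620777, plus strand) was measured at 2.97, 2.47 and 2.48 CPM in DMSO, 3.00, 4.86 and 3.03 with abemaciclib, 1.98, 1.69 and 2.05 with fulvestrant, and 1.68, 2.27 and 2.33 in the combination, from 6 to 22 counts per library. Its abemaciclib libraries were the highest, by margins that the test did not call. FOSL1 (chr11:65892049-65900573, minus strand), which encodes FRA1, had no read, and a count of 0 over a group allows up to 0.223 CPM in DMSO, 0.222 with abemaciclib, 0.25 with fulvestrant and 0.212 in the combination, for counting error only.

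The first question was what CDK4/6 inhibition alone did to these genes. Abemaciclib raised 5 of the 8 tested genes and lowered none, while 41.2% of all genes tested changed, 20.5% higher and 20.7% lower. FOSB rose most, by 2.21 ± 0.46 on the log2 scale (SE; adjusted p 0.000309; edgeR quasi-likelihood test with Benjamini-Hochberg adjustment over all genes, as for every adjusted p here). FOS rose by 1.02 ± 0.35 (adjusted p 0.0362), JUN by 0.94 ± 0.11 (5.69e-08), JUNB by 0.84 ± 0.12 (2.33e-05) and FOSL2 by 0.71 ± 0.13 (8.38e-05). JUND differed by 0.14 ± 0.09 (adjusted p 0.224; 95% interval -0.04 to 0.32), ATF3 by 0.47 ± 0.35 (0.289; -0.24 to 1.19) and EGR1 by 0.53 ± 0.34 (0.258; -0.25 to 1.30). The FOS call was lost when DMSO replicate 1 or 2 or abemaciclib replicate 2 or 3 was left out, with adjusted p values of 0.0922, 0.133, 0.11 and 0.11.

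The second question was what fulvestrant alone did. It raised 7 of the 8 tested genes and lowered none, while 51% of all genes changed, 25.3% higher and 25.7% lower. FOS rose by 1.76 ± 0.34 (adjusted p 0.000786), from a mean of 8.29 ± 2.54 to 28.0 ± 3.83 CPM (SD, n = 3). FOSB rose by 1.43 ± 0.51 (0.0201), FOSL2 by 1.34 ± 0.13 (9.68e-10), JUNB by 1.31 ± 0.12 (3.55e-08), EGR1 by 1.22 ± 0.34 (0.0147), JUN by 1.21 ± 0.11 (2.58e-10) and JUND by 0.51 ± 0.09 (2.37e-05). ATF3 was the exception, at -0.44 ± 0.40 (0.376). The EGR1 call was lost without DMSO replicate 2 (adjusted p 0.0568), and the FOSB call without DMSO replicate 2 or fulvestrant replicate 2 (0.103 and 0.0723).

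With both drugs, 4 of the 8 were higher than in DMSO and none lower, while 55.2% of all genes changed, 27.7% higher and 27.5% lower. FOSL2 rose by 1.44 (adjusted p 1.3e-10), JUNB by 1.35 (1.86e-08), JUN by 1.23 (1.18e-10) and JUND by 0.49 (2.66e-05). For the other immediate early members the combination could not be told from DMSO: the difference was 0.55 for FOS (adjusted p 0.229), 0.76 for FOSB (0.24), 0.06 for EGR1 (0.902) and -0.30 for ATF3 (0.528). The mean EGR1 level was 97.7 ± 31.3 CPM in the combination and 94.4 ± 19.6 in DMSO (SD, n = 3). FOS passed the threshold with no filter on low counts (0.0335) and without combination replicate 1 (0.0364). These 3 comparisons share the DMSO libraries.

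**Figure D2:**
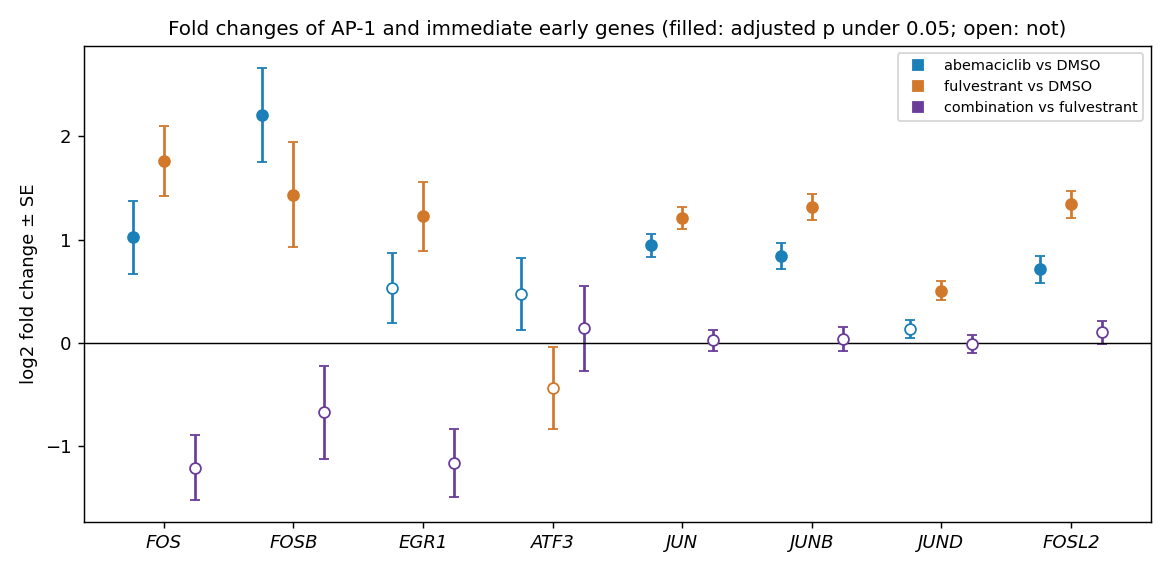
Log2 fold changes (y axis, ± SE) of the 8 tested genes for abemaciclib against DMSO, fulvestrant against DMSO and the combination against fulvestrant. Filled circles passed an adjusted p of 0.05. JUN, JUNB, JUND and FOSL2 sit near 0 in the combination against fulvestrant, whereas FOS and EGR1 sit at -1.21 and -1.17, both open circles.

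Adding abemaciclib to fulvestrant is the step by which the profiles were told apart, so it is no separate test of them. None of the 8 reached an adjusted p of 0.05 with edgeR, in a comparison where 1.92% of all genes did, 0.297% higher and 1.63% lower. FOS had a log2 fold change of -1.21 ± 0.31 (adjusted p 0.0912) and EGR1 of -1.17 ± 0.33 (0.185), the 2 genes with an unadjusted p under 0.05 (0.00227 and 0.0076). For both, all 3 combination libraries lay below all 3 fulvestrant libraries, which 7.44% of all genes did. DESeq2 called both lower, at adjusted p values of 0.00626 for FOS and 0.037 for EGR1. FOS also passed when only these groups were fitted (0.0235), with the replicate number as a block (0.017), without combination replicate 3 (0.0342) and with no filter on low counts (1.24e-08). In the other 8 of 13 alternatives FOS did not pass, with adjusted p values up to 0.28. Its log2 fold change ranged from -1.53 to -0.95 over all 13. With no filter, every gene with any read entered the fit. The FOS log2 fold change stayed at -1.21 there, so the smaller adjusted p came with no larger difference. EGR1 did not pass in 12 of 13, with adjusted p values up to 0.416. By contrast JUN differed by 0.02 (95% interval -0.18 to 0.23), JUNB by 0.04 (-0.21 to 0.28), JUND by -0.01 (-0.19 to 0.17) and FOSL2 by 0.10 (-0.13 to 0.33). FOSB, at -0.68 (-1.60 to 0.25), and ATF3, at 0.14 (-0.70 to 0.98), were measured too loosely to place.

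Adding fulvestrant to abemaciclib raised 4 genes and lowered 1, while 33.5% of all genes changed, 15.9% higher and 17.7% lower. FOSL2 rose by 0.73 (adjusted p 1.66e-05), JUNB by 0.51 (0.00233), JUND by 0.36 (0.00206) and JUN by 0.29 (0.0284). FOSB fell by 1.45 ± 0.41 (0.00644). FOS (-0.47, adjusted p 0.302), EGR1 (-0.47, 0.334) and ATF3 (-0.77, 0.0974) did not pass, though FOS did without abemaciclib replicate 1 (0.046). The JUN call was lost with DESeq2 (0.0721) and with 4 single libraries left out in turn (0.058 to 0.165), and the FOSB call without abemaciclib replicate 3 or combination replicate 2 (0.0776 and 0.0527). Without combination replicate 2 the count of genes changed was 3.

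Set against each other, fulvestrant gave higher levels than abemaciclib for 3 genes and lower levels for none, while 29% of all genes changed, 13.4% higher and 15.5% lower. These were FOSL2 (0.63, adjusted p 0.00018), JUNB (0.47, 0.00515) and JUND (0.37, 0.00193). JUN (0.26, adjusted p 0.0506), FOS (0.74, 0.0914) and EGR1 (0.70, 0.157) did not pass, nor did FOSB (-0.78, 0.139) or ATF3 (-0.91, 0.0711). Without abemaciclib replicate 3, JUN and EGR1 passed too (0.0467 and 0.035), which made 5 genes. JUN also passed with RLE factors (0.0476) and without fulvestrant replicate 3 (0.00909). FOS passed with the replicate number as a block (0.0311), with no filter on low counts (0.000511) and when only these groups were fitted (0.0278). With no filter its log2 fold change was 0.73, no larger than in the main fit.

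The interaction asks whether abemaciclib did the same with fulvestrant present as without it: it is the log2 change from fulvestrant to the combination minus that from DMSO to abemaciclib. It was negative past the threshold for 6 of the 8 genes and positive for none, while 21.1% of all genes passed, 9.49% positive and 11.6% negative. FOSB had the largest value, -2.89 ± 0.65 (adjusted p 0.00193), then FOS at -2.23 ± 0.47 (0.00534), EGR1 at -1.69 ± 0.48 (0.0371), JUN at -0.92 ± 0.15 (4.19e-05), JUNB at -0.80 ± 0.17 (0.00225) and FOSL2 at -0.61 ± 0.17 (0.0124). JUND (-0.15, adjusted p 0.425) and ATF3 (-0.33, 0.709) did not pass. The parts differed between genes. For JUN, JUNB and FOSL2, abemaciclib gave a rise without fulvestrant and a difference of at most 0.10 with it. For FOS the change was 1.02 without fulvestrant and -1.21 with it, and for EGR1 0.53 and -1.17, where the members of each pair come from different libraries. The EGR1 call was lost in 9 of 18 alternatives, with adjusted p values up to 0.0854.

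The balance within the JUN family shifted with these changes, and that within the FOS family less clearly. Because a 3′ library gives about 1 read per transcript end, counts of different genes were compared as shares of reads without a length correction. JUND made up 59.0% ± 6.60 of JUN-family reads in DMSO (SD, n = 3), 45.8% ± 0.0781 with abemaciclib, 45.4% ± 3.45 with fulvestrant and 44.8% ± 4.00 in the combination. Its share was 53.5 to 66.3% across DMSO libraries and 40.8 to 48.9% across the 9 treated libraries, with no overlap. FOSL2 made up most FOS-family reads in every group: 69.7% ± 9.04 in DMSO, 62.2% ± 7.77 with abemaciclib, 64.2% ± 3.62 with fulvestrant and 81.5% ± 7.09 in the combination. The share of FOS was 27.0 to 35.04% across fulvestrant libraries and 9.43 to 21.1% across combination libraries, which did not overlap. In every treated group the FOS and FOSL2 shares overlapped those of DMSO. The share of FOSB, a scarce gene, was 6.45 to 12.9% with abemaciclib and 2.33 to 5.10% in DMSO, without overlap. These shares were not tested.

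FOS, FOSB and EGR1 also varied most between libraries of the same treatment. The pooled SD of log2 CPM within groups was 0.484 for FOS, 0.523 for FOSB and 0.415 for EGR1, against a median of 0.192 over all genes tested. It was 0.224 for ATF3, 0.2 for JUNB, 0.146 for JUN, 0.141 for FOSL2 and 0.115 for JUND. In the plot of departures from the group mean, FOS and EGR1 lay on the same side of 0 in most libraries. Both were lowest in abemaciclib replicate 1, at -0.65 and -0.55, and highest in replicate 3, at 0.41 and 0.63, and in the combination both were again lowest in replicate 1 and highest in replicate 3. JUN, JUNB and ATF3 had the same order of replicates in the combination, by smaller margins (JUN from -0.115 to 0.135). JUND and FOSL2 had the reverse order there. JUN and JUND stayed within 0.21 of their group means in all 12 libraries.

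**Figure D3:**
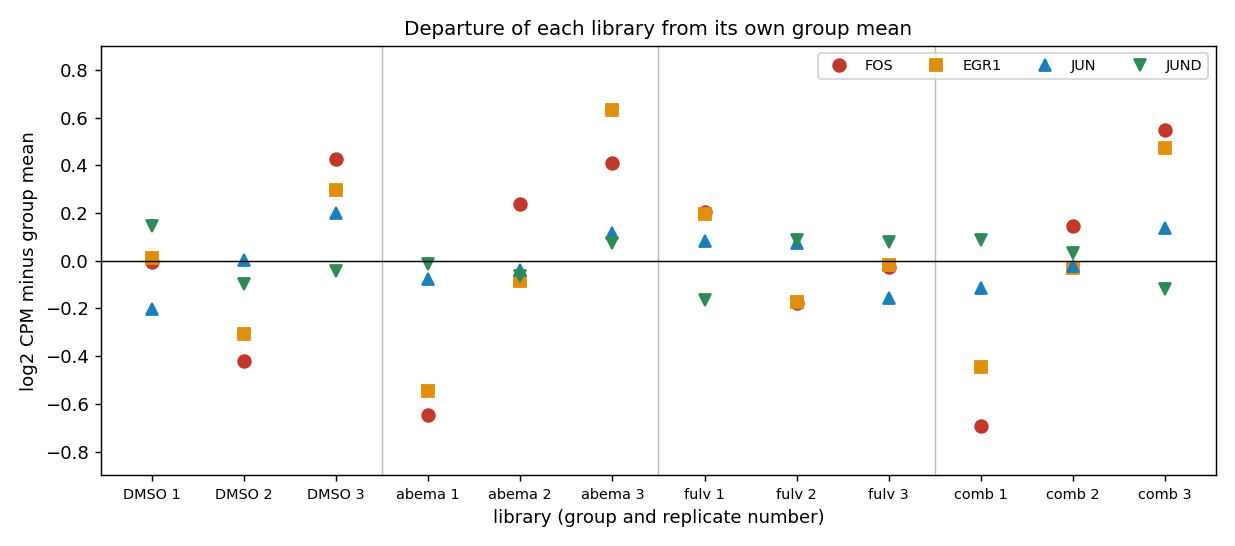
Log2 CPM of FOS, EGR1, JUN and JUND in each library minus the mean of its own group (y axis), with libraries by group and replicate number on the x axis. FOS reaches -0.69 and EGR1 0.63, and the 2 tend to depart together, whereas JUN and JUND stay within 0.21 of 0.

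EGR1 was also the gene most like FOS in profile. Likeness was the root mean square difference between 2 genes' group means of log2 CPM, each centred on its own mean, over the 4 groups and 9086 genes with at least 10 CPM in some group. EGR1 differed from FOS by 0.21, followed by TMEM86A (0.25) and ABCC1 (0.26), and EGR1 itself was nearest to ZNF254 (0.20), FOS (0.21) and IL1R1 (0.22). JUN, JUNB, FOSL2 and JUND had much closer neighbours, and also varied less between libraries of the same treatment than FOS and EGR1. FOSB and ATF3, under 10 CPM in every group, were not compared. JUN was nearest to BTBD9, ZNF570 and PIK3R3 (0.01 to 0.02), JUNB to ARSD, H2BC5 and PTPRF (0.02 to 0.03), FOSL2 to H2BC8, FTX and HDAC5 (0.02 to 0.03) and JUND to PNPLA8, LRRC1 and PIGC (0.01 to 0.02).

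Other immediate early genes, from a list of 26 of which 21 were tested, were counted next. Abemaciclib raised 11 and lowered 1 (median log2 fold change 0.56), fulvestrant raised 11 and lowered 4 (0.46) and the combination raised 9 and lowered 4 against DMSO (0.39), whereas the median over all genes tested was within 0.02 of 0 in each comparison. The shares of the whole table called were 20.5% upward and 20.7% downward with abemaciclib, 25.3% and 25.7% with fulvestrant, and 27.7% and 27.5% with both drugs, the background for each list that follows. The interaction was negative past the threshold for 10 and positive for none (median -0.66). Over all genes tested it was negative for 11.6% and positive for 9.49%, which is also the background for the feedback regulators below. CCN1, a matricellular gene of the serum response, rose with abemaciclib from 18.1 to 68.7 CPM (1.86 ± 0.30, adjusted p 0.000744) and with fulvestrant to 37.0 CPM (0.96 ± 0.32, 0.0299). IER3, a stress-inducible survival gene, rose with abemaciclib from 549.7 to 1179 CPM (1.10 ± 0.08, 2.49e-11) and was at 579.5 CPM in fulvestrant. MCL1, an anti-apoptotic BCL2 relative, rose with fulvestrant (1.05 ± 0.09, 1.43e-10) and the combination (1.13 ± 0.09, 2.37e-11). PPP1R15A, which directs dephosphorylation of eIF2α, rose by 1.06 with abemaciclib, 1.11 with fulvestrant and 1.11 with both (adjusted p 3.59e-05, 1.29e-05 and 9.58e-06). MYC went the other way with fulvestrant, from 17.6 to 6.87 CPM (-1.40 ± 0.44, adjusted p 0.0222), and with both drugs, to 4.67 CPM (-1.93 ± 0.46, 0.00428). The fulvestrant call was lost for CCN1 without fulvestrant replicate 1 or 2 (0.0919 and 0.102) and for MYC without fulvestrant replicate 2 or 3 (0.0783 and 0.0906), and each also when only these groups were fitted (0.0691 and 0.0529). Between combination and fulvestrant 1 gene changed, HES1, a Notch target, which was lower (-0.44 ± 0.09, 0.00316).

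Feedback regulators are genes induced by the same signals that restrain them, such as phosphatases, RNA-binding proteins and other inhibitors. Of 21 tested from a list of 23, abemaciclib raised 13 and lowered 1 (median 0.77), fulvestrant raised 10 and lowered 2 (0.66), the combination raised 11 and lowered 2 (0.58), and the interaction was negative for 8 and positive for 2 (-0.69). Calls in either direction were 14, 12 and 13 of the 21 with abemaciclib, fulvestrant and both drugs, against 41.2%, 51% and 55.2% of all genes, and the difference from the background was not tested. ZFP36L2, which promotes decay of AU-rich messages, rose with fulvestrant from 100.3 to 390.9 CPM (1.96 ± 0.08, adjusted p 2.59e-17). DUSP1, a phosphatase of p38, JNK and ERK, stood at 16.6, 17.7 and 22.5 CPM in DMSO, 37.4, 46.1 and 58.1 with abemaciclib, 77.1, 56.1 and 82.5 with fulvestrant, and 35.1, 65.5 and 81.9 in the combination. Every treated library of DUSP1 was above DMSO, by 1.30 ± 0.35 for abemaciclib (adjusted p 0.0153), 1.92 ± 0.34 for fulvestrant (0.00113) and 1.68 ± 0.34 for both (0.00222). DUSP8, a phosphatase of JNK and p38, rose by 1.35 ± 0.12 with abemaciclib (4.21e-10), and TRIB1, a pseudokinase, by 1.67 ± 0.14 with fulvestrant (5.04e-11). The DUSP1 call for abemaciclib was lost without DMSO replicate 1 or 2 (0.053 and 0.0559), and without DMSO replicate 1 the count for abemaciclib was 8 higher and 1 lower.

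**Figure D4:**
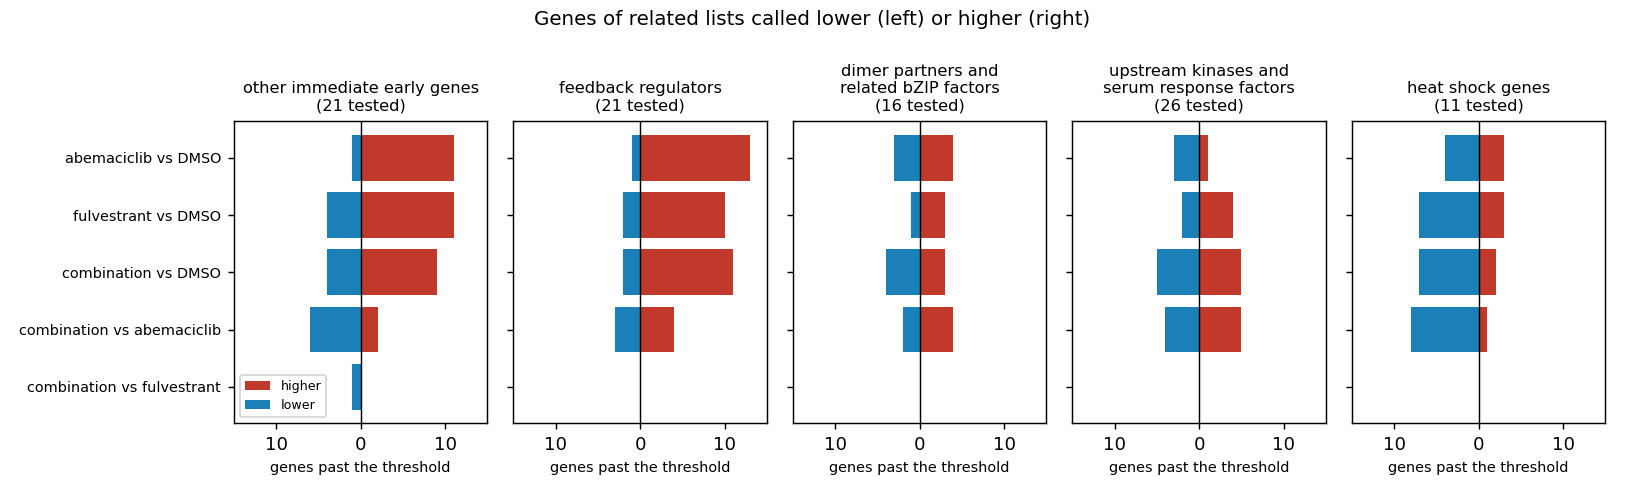
Number of genes in each of 5 lists called lower (left of 0) or higher (right of 0) at an adjusted p of 0.05, for 5 comparisons (y axis). Higher calls outnumber lower ones among other immediate early genes and feedback regulators in each comparison with DMSO, and 1 call in all was made between combination and fulvestrant.

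Dimer partners and upstream kinases were counted in the same way. Of 16 tested dimer partners and related leucine zipper factors (20 listed), abemaciclib raised 4 and lowered 3, fulvestrant raised 3 and lowered 1, and the combination raised 3 and lowered 4. The abemaciclib count of 7 of 16 was near the 41.2% of all genes called. Without abemaciclib replicate 1 it was 2 higher and 2 lower. JDP2, a repressor that dimerises with JUN proteins, rose with fulvestrant from 84.0 to 178.5 CPM (1.10 ± 0.13, adjusted p 9.2e-07) and with both drugs to 188.3 CPM (1.17 ± 0.13, 3.17e-07). BATF, an AP-1 subunit of lymphocytes, rose with abemaciclib from 6.65 to 13.8 CPM (1.03 ± 0.21, 0.000235). CEBPD also rose with abemaciclib, from 5.18 to 10.3 CPM (0.99 ± 0.23, 0.00119). ATF4 fell from 547.7 CPM to 410.2 with abemaciclib and 405.1 with fulvestrant (adjusted p 0.00287 and 0.00147).

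All 26 listed kinases and serum response factors were tested. Abemaciclib raised 1 and lowered 3, fulvestrant raised 4 and lowered 2, and the combination raised 5 and lowered 5. With only the groups compared fitted, abemaciclib raised 3 and lowered 4. RPS6KA5, which encodes MSK1, a kinase that phosphorylates histone H3 at immediate early genes, rose from 29.6 CPM in DMSO to 43.3 with abemaciclib (0.53 ± 0.13, adjusted p 0.0021) and 84.7 with fulvestrant (1.49 ± 0.13, 9.5e-11). It stood at 74.7 CPM with both drugs. HRAS fell from 62.0 CPM to 30.4 with abemaciclib (8.78e-08), 32.5 with fulvestrant (2.51e-07) and 34.0 with both (4.95e-07).

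The classical AP-1 target genes were mostly scarce or undetected in this line. Of 21 listed, 5 were tested (CCND1, VEGFA, PLAUR, HMOX1 and CD44) and 9 or 10 had no read in each group. CCND1, which encodes cyclin D1 and is also an ER target, rose with abemaciclib from 617.3 to 1327 CPM (1.10 ± 0.07, adjusted p 1.2e-12) and fell with fulvestrant to 195.3 CPM (-1.66 ± 0.07, 2.04e-16). VEGFA rose with fulvestrant from 34.5 to 89.4 CPM (1.36 ± 0.11, 9.57e-11) and with both drugs to 97.7 CPM (1.49 ± 0.11, 9.01e-12). PLAUR, the urokinase receptor gene, rose with fulvestrant (0.64 ± 0.19, 0.00614) and with both drugs (1.00 ± 0.18, 3.38e-05). With both drugs 2 of the 5 were higher and 2 lower: CCND1 fell to 231.9 CPM (-1.41 ± 0.07, 2.5e-15) and HMOX1, the haem oxygenase gene, from 30.6 to 18.9 CPM (-0.69 ± 0.14, 0.000195). CD44 passed in none of the comparisons.

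Heat shock genes, which respond to proteotoxic stress, did not move together. Of 11 tested, abemaciclib raised 3 and lowered 4, fulvestrant raised 3 and lowered 7, and the combination raised 2 and lowered 7. HSPB1, a small heat shock protein, rose with abemaciclib from 2489 to 6814 CPM (1.45 ± 0.08, adjusted p 2.46e-14), whereas HSPD1, a mitochondrial chaperone, fell with fulvestrant from 352.9 to 118.1 CPM (-1.57 ± 0.09, 3.5e-14). The summed level of the 11 genes was 9439 to 9961 CPM in DMSO, 11811 to 12583 with abemaciclib, 8341 to 8692 with fulvestrant and 8188 to 8854 in the combination, and its part in the AP-1 results was not tested.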

How the data were processed

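Per the study's methods and the labels, the authors trimmed reads with BBDuk, aligned them to GRCh38 (hg38) with STAR and counted them per gene with featureCounts 2.0.1 on GENCODE v35. The authors deposited these raw counts, 1 column per library. Strand setting and molecular identifiers are not given in the sources used here. Reads can therefore not be taken as independent molecules, and limits cover counting error only. Of 60656 entries, 44 had no gene name and 0 reads and were left out.

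The tests used edgeR 4.0.16 and limma 3.58.1 under R 4.3.3. filterByExpr, run by group with a minimum count of 10 and a minimum total of 15, set the genes kept, libraries were TMM-scaled, and 1 robust quasi-likelihood model of 4 group means was fitted to all 12 libraries (biological coefficient of variation 0.0918). P values were adjusted over 11803 genes after Benjamini and Hochberg and read at 0.05, and standard errors derive from the F statistic. DESeq2, which the study used in another version, was an alternative, here at version 1.42.0. Others were RLE and upper-quartile factors, no filter, at least 10 counts in every library, only the groups compared, and a replicate block. Each of the 12 libraries was also left out in turn. The pipeline was tested on simulated data. Log2 CPM used a prior count of 2.

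The members and gene lists were chosen with earlier results of these data known. All members are named, and from each list up to 4 genes per comparison with the largest absolute change among those past the threshold and at 10 CPM or more in a group; not all of these are reported. Marker genes, ratios of levels and EGR3, BTG2, NR4A1 and IER2 were named after their values were seen. Positions are from GENCODE v44 on GRCh38. Promoters are from RefSeq on GRCh38.p14, searched over 250 bases.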

Additional observations from a re-analysis of the deposited data

Results flagged for a closer look

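For 6 genes the change produced by abemaciclib differed between cells with and without fulvestrant, by the interaction term of the edgeR model (adjusted p under 0.05 over all genes). On the log2 scale the change with fulvestrant minus the change without it was -2.89 for FOSB, -2.23 for FOS, -1.69 for EGR1, -0.92 for JUN, -0.80 for JUNB and -0.61 for FOSL2. FOS lay between 5.89 and 11.0 CPM in DMSO, 10.2 and 21.7 with abemaciclib, 24.5 and 32.1 with fulvestrant, and 6.74 and 16.5 with both drugs. For JUN, JUNB and FOSL2 the fulvestrant and combination libraries overlapped. Causes were not tested.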

How the results depend on the processing

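Across 7 other settings and 12 single libraries left out, the count of AP-1 and immediate early genes changed in the comparisons of each treatment with DMSO and in the interaction stayed within 1.5 times its value. In the combination against fulvestrant it was 0, but 2 with DESeq2, 1 with no filter on low counts, 1 when only the groups compared were fitted, and 0 to 1 with single libraries left out. It ranged from 3 to 5 against 5 in the combination against abemaciclib, and from 3 to 5 against 3 in fulvestrant against abemaciclib. All genes changed in the combination against fulvestrant numbered 227, but 91 with at least 10 counts in every library, 125 when only those groups were fitted, and 146 to 588 with single libraries left out, the highest without fulvestrant replicate 3.

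Among the other gene lists, the counts given above that moved by more than 1.5 times were those of abemaciclib against DMSO for feedback regulators (14, or 9 without DMSO replicate 1), dimer partners (7, or 4 without abemaciclib replicate 1), kinases (4, or 7 with only the groups compared fitted) and AP-1 targets (1, or 2 without DMSO replicate 3), and of the combination against fulvestrant for other immediate early genes (1, or 2 without fulvestrant replicate 3 and 0 without combination replicate 3). Without fulvestrant replicate 3, 1 feedback regulator, 1 AP-1 target, 2 kinases and 2 heat shock genes passed in that comparison, where none had.

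Some differences near 0 changed sign when single libraries were left out. EGR1 in the combination against DMSO ranged from -0.21 to 0.25, negative without DMSO replicate 2 (-0.09) or combination replicate 3. In the combination against fulvestrant JUN ranged from -0.057 to 0.074 and JUNB from -0.025 to 0.11, both negative without fulvestrant replicate 3 or combination replicate 3. JUND ranged from -0.095 to 0.039, positive without fulvestrant replicate 2 or 3 or combination replicate 3.

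Over all genes tested, replicate numbers showed no pairing of the samples. Same-numbered libraries had correlations of departures from the group mean between -0.215 and 0.119, and 5 of 12 libraries correlated best with their own number. This check takes all genes together and cannot exclude a shared replicate effect on single genes such as FOS. With the replicate block, 1 of these genes, FOS, passed in the combination against fulvestrant, and 203 genes in all. FOS also passed in fulvestrant against abemaciclib (0.76, adjusted p 0.0311), and the block changed no other call among the AP-1 and immediate early genes. The causes were not tested. FOSB and ATF3, at 4 to 34 counts per library, are the genes that depth limits most.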

Other observations

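EGR3, a relative of EGR1 chosen after its values were seen, had another profile. It stood at 2.08, 2.09 and 1.86 CPM in DMSO and at 4.00, 6.40 and 6.57 in abemaciclib, a rise by edgeR (adjusted p 0.00552). In fulvestrant it had 0, 0 and 2 counts, and in the combination 0, 0 and 3 counts, both lower than DMSO (adjusted p 0.00133 and 0.00115). The mean level of EGR1 was highest in fulvestrant, where EGR3 was near 0.

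NR4A1, an orphan nuclear receptor of the immediate early group, rose with abemaciclib (1.14 ± 0.31, adjusted p 0.00479) and with fulvestrant (1.25 ± 0.32, 0.00157) and did not pass with both drugs (0.46 ± 0.34, 0.258), with an interaction of -1.94 ± 0.43 (0.00177). BTG2, an antiproliferative gene induced by p53, rose by 2.33, 2.44 and 2.42 in abemaciclib, fulvestrant and the combination (adjusted p 6.43e-05, 2.38e-05 and 1.71e-05), from 3 to 8 counts per DMSO library. IER2 passed in none of these comparisons, except with the replicate block for fulvestrant and the combination (adjusted p 0.043 and 0.0192) and without combination replicate 1 (0.0175). Its combination libraries stood at 225.9, 320.7 and 408.9 CPM, lowest in replicate 1 and highest in replicate 3. FOS, EGR1, JUN, JUNB and ATF3 had the same order in that group.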
